A study of Mus musculus with 6 samples.

Results

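The 7 genes described here are Fam184a, Chn2 and Stk26, which were nearly absent from 4T1 cells expressing METTL7A1 but present in mock cells, and the other members of their small families, Fam184b, Chn1, Stk24 and Stk25. The first 3 were chosen from the counts themselves for that pattern and are termed the lost genes, because RNA counts give no mechanism of silencing. The 4 paralogs were added by family membership, and the question asked of them was whether their RNA was higher where the related gene was lost. All 7 were among the 48587 genes of the deposited table, and 6 of them were among the 13166 genes abundant enough to be tested.

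4T1 is a mouse mammary carcinoma line. The METTL7A1 group comprised 3 libraries of total RNA from cells that stably carried full-length Mettl7a1 cDNA in the pBICEP-CMV-2 vector, a plasmid with a CMV promoter, and were kept under G418 selection. The mock group comprised 3 libraries from cells carrying the empty vector. The sources used here describe the replicates as biological triplicates but do not say whether each group was 1 clone or a pool, so p values measure the spread between these libraries. A difference between the 2 lines that does not come from METTL7A1 cannot be told apart from its effect. Library totals ranged from 18386780 to 28459338 counts, and Mettl7a1 itself had 6355 to 11358 counts in METTL7A1 libraries and 29 or 30 in mock libraries. The epithelial markers Epcam, Krt7, Krt8, Krt18, Krt19 and Cdh1 were detected in every library, with group means between 46.1 and 624 cpm (counts scaled to library size). Of the blood and endothelial markers, Ptprc, Cd3e, Cd79a, Adgre1, Pecam1 and Cdh5 had at most 16 counts in any library.

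The lost genes belong to unrelated families. Chimaerins, encoded by Chn1 and Chn2, are GTPase-activating proteins that switch off the small GTPase Rac and are themselves recruited to membranes by the lipid messenger diacylglycerol through a C1 domain. Stk24 (MST3), Stk25 (YSK1) and Stk26 (MST4) encode the germinal centre kinases of group III (GCKIII), which bind the adaptor PDCD10 and through it join STRIPAK, a complex that pairs kinases with the phosphatase PP2A. The products of Fam184a and Fam184b are long coiled-coil proteins of little known function.

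Because the paralogs are related in sequence, shared sequence was examined first. In the GENCODE M21 transcripts no stretch of 31 bases was shared between any members of a family. The longest coding sequences of Chn2 (1407 bases) and Chn1 (1380 bases) were identical at 72.6% of aligned bases. Their longest shared run was 26 bases at positions 673 to 698 of the Chn2 coding sequence. It is shown here because it is the longest coding run shared within any of these families.

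Chn2 and Chn1, shared run: ccacactggtgtgaatactgtgccaa

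Stk26 was identical to Stk24 at 71.9% and to Stk25 at 69.9% of aligned coding bases, and its longest run shared with each of them was 14 bases. Stk24 and Stk25 were identical at 74.5% of aligned bases, with a longest shared run of 17 bases. Fam184a and Fam184b were identical at 64.6% of aligned bases.

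Promoter windows of the lost genes, spanning the RefSeq transcription start, are shown with that of Fam184b, the paralog with almost no reads. They were taken from RefSeq (GRCm38.p6), in which 6 of the 7 members had an entry, and CG dinucleotides are in capitals. Each is written on the strand of its gene. In the annotation used for the counts, Chn2 starts at 54039573 and Stk26 at 50841047. Their printed windows lie wholly downstream of those starts.

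Fam184a, chr10:53750860-53751159, minus strand: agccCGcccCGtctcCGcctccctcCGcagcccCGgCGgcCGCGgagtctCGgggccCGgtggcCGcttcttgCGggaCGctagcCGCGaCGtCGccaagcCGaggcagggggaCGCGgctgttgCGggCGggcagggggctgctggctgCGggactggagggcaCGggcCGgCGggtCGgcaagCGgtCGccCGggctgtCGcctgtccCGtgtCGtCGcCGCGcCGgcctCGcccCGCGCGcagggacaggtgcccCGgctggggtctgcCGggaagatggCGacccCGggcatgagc
Chn2, chr6:54039682-54039981, plus strand, the first of 4 windows: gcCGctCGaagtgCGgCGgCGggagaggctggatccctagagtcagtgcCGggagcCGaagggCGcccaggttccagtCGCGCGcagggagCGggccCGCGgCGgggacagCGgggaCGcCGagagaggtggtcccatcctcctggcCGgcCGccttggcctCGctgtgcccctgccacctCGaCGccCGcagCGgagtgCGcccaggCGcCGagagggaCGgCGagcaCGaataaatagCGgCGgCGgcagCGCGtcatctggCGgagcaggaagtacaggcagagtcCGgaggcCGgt
Stk26, chrX:50841121-50841420, plus strand: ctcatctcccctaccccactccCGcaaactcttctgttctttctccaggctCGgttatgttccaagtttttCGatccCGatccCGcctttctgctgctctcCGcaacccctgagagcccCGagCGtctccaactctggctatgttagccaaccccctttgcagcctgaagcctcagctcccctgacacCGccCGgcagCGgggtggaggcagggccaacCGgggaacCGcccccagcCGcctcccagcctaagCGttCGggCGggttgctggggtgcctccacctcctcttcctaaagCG
Fam184b, chr5:45639452-45639751, minus strand: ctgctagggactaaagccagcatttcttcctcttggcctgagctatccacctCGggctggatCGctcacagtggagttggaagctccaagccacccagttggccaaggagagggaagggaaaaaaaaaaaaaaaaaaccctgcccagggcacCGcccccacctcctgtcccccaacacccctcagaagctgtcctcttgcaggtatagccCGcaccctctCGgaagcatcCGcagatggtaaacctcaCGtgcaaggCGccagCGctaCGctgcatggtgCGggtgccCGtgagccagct

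The printed windows of the lost genes held more CG than most windows, but the other windows of Chn2 did not. The Fam184a window held 45 CG dinucleotides, the first Chn2 window 39 and the Stk26 window 18, compared with 12 in Fam184b and a median of 7 over 32851 windows of the same length. The ratio of observed to expected CG was 0.958 for Fam184a, 0.983 for the first window of Chn2 and 0.647 for Stk26, and it was over 0.6 in 35.8% of all windows. The other 3 windows of Chn2 held 7, 2 and 4 CG dinucleotides, with ratios of 0.395, 0.135 and 0.173 beside a median of 0.384 over all windows. A rich window was not particular to the lost genes, as the first window of Chn1 had a ratio of 1.07 and that of Stk25 one of 0.852. The GC box GGGCGG, searched on both strands, was present in the windows of Fam184a, Stk26 and Fam184b but not in the first window of Chn2, and in 35.7% of all windows. The TATAAA box was in none of these 4 windows, compared with 13.6% of all windows.

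Fam184a (chromosome 10, 53633145 to 53750880, minus strand, mm10) had the highest level of the lost genes in mock cells. It had 612, 852 and 1006 counts in mock replicates 1 to 3 and 1, 6 and 4 counts in METTL7A1 replicates 1 to 3. No METTL7A1 library came near a mock library. Its abundance was 36.4 ± 3.67 cpm in mock and 0.140 ± 0.0771 cpm in METTL7A1 cells (SD, n = 3 each). What remained was 0.412% of the mock level, with a 95% interval of 0.206% to 0.739% that covers counting error only. In RNA of a whole culture, fewer cells with the transcript and less RNA per cell cannot be told apart.

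Chn2 (chromosome 6, 54039573 to 54301810, plus strand), the gene of beta-chimaerin, was a low-abundance transcript in mock cells. It had 107, 125 and 150 counts in mock and 4, 1 and 2 counts in METTL7A1 replicates 1 to 3, or 5.68 ± 0.463 against 0.110 ± 0.0943 cpm (SD, n = 3 each). The remainder was 1.70% of the mock level (95% interval 0.678% to 3.53%, counting error only). Chn2 has several start sites, and counts per gene do not show which of its transcripts the mock cells used.

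Stk26 (chromosome X, 50841047 to 50893097, plus strand) had a level like that of Chn2. Its counts were 81, 151 and 142 in mock and 1, 5 and 2 in METTL7A1 replicates 1 to 3, or 5.46 ± 0.929 against 0.101 ± 0.0603 cpm (SD, n = 3 each). The remainder was 1.98% of the mock level (95% interval 0.849% to 3.94%, counting error only). The intervals of Chn2 and Stk26 overlapped each other, while that of Chn2 began just below the upper end of that of Fam184a. The log2 fold changes from the fit over all genes were -7.86 for Fam184a, -5.79 for Chn2 and -5.58 for Stk26, which are given without a test because this difference chose the genes. They ranked 2, 9 and 11 from the lowest of 13166. Single libraries weigh in the last of these values, as Chn2 was at -6.54 without METTL7A1 replicate 1 and Stk26 at -6.19 without METTL7A1 replicate 2.

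Few genes shared the pattern. With the limits set by the members themselves, at most 6 counts in every METTL7A1 library and at least 81 in every mock library, 5 genes of the table qualified. Besides the 3 lost genes these were Dapk1 and 2810429I04Rik. The opposite pattern, at most 6 counts in every mock library and at least 81 in every METTL7A1 library, was met by 0 genes. The lost genes meet the limits by construction, so the numbers of the opposite directions are not on equal terms. Just outside the limits lay Slit2, with 3 counts in each METTL7A1 library and 67, 92 and 95 in mock, and Rnf113a2, with 1, 3 and 2 counts against 68, 114 and 79. Pcdh18 was also close, with 4, 1 and 5 counts against 71, 108 and 81.

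**Figure D1:**
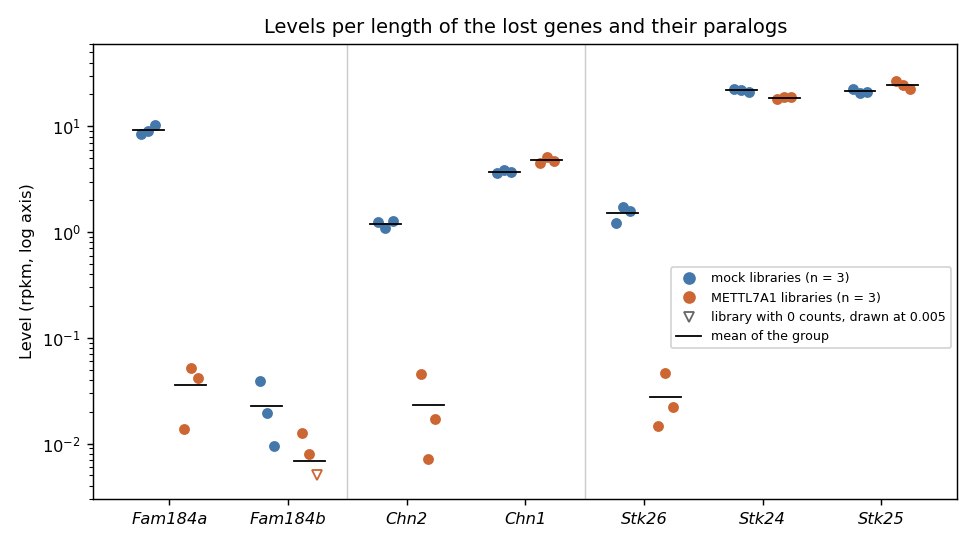
Level per length (rpkm, cpm per kilobase of exon, log axis) of each gene in every library, with mock libraries in blue, METTL7A1 libraries in orange and the mean of 3 libraries as a line. The lost genes Fam184a, Chn2 and Stk26 fall to between 0.0233 and 0.0356 rpkm, while Chn1, Stk24 and Stk25 stay near their mock levels and Fam184b is at most 0.0387 rpkm in any library, with an open triangle for its library with 0 counts.

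Fam184b was at or below the limit of detection in every library. It had 3, 2 and 1 counts in mock and 1, 1 and 0 in METTL7A1 replicates 1 to 3, and was therefore under the abundance filter. The 3 counts that serve as the limit of detection correspond to 0.024 to 0.0387 rpkm depending on the library. That is at most 0.417% of the 9.28 ± 0.936 rpkm (SD, n = 3) of Fam184a in mock cells. Both groups were at or below this limit, so no fold change is given, and a change of Fam184b within it was not detectable at this depth. The summed level of both genes went from 9.30 ± 0.923 rpkm in mock to 0.0425 ± 0.0167 rpkm in METTL7A1 cells (SD, n = 3 each), or 0.458% of mock.

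Of the 3 paralogs tested, 2 differed at an adjusted p under 0.05, Chn1 higher and Stk24 lower, compared with 42.1% of all 13166 genes (21.1% higher and 21% lower). With 42.1% of genes called, a call of a single paralog is common in this comparison. At the thresholds of the study, an adjusted p under 0.01 with a log2 fold change beyond 1.5, none of the 3 passed in edgeR, DESeq2 or voom, compared with 2.48% of all genes in edgeR (1.61% higher and 0.866% lower), although all 3 had an unadjusted p under 0.05 in edgeR. Stk25 had an adjusted p of 0.0749 in the edgeR quasi-likelihood test.

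Chn1 (chromosome 2, 73610660 to 73775346, minus strand), the gene of alpha-chimaerin, was higher in METTL7A1 cells. Its abundance was 17.8, 18.9 and 18.2 cpm in mock and 21.9, 25.1 and 23.1 cpm in METTL7A1 replicates 1 to 3, so the groups did not overlap, as in 51.6% of all tested genes. The log2 fold change was 0.35 with a 95% interval of 0.17 to 0.54 (edgeR quasi-likelihood test, adjusted p = 0.00671). Per length, Chn1 was already the main chimaerin in mock cells, at 3.72 ± 0.117 rpkm against 1.20 ± 0.0979 rpkm of Chn2 (SD, n = 3 each). The gain of Chn1, 1.03 rpkm with an SE of 0.199, was 87.6% (SE 17.4%) of the 1.18 rpkm (SE 0.0577) lost from Chn2. These values rest on 1 exon length per gene. The transcripts in use are not known, and the SEs do not cover that.

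With these exon lengths the summed chimaerin level was similar in both groups. It was 4.86, 4.94 and 4.97 rpkm in mock and 4.51, 5.11 and 4.72 rpkm in METTL7A1 replicates 1 to 3, and the ranges overlapped. The mean was 97% of mock, and it is given without a test because Chn2 was chosen for its loss. Chn2 made up 24.4% of the sum in mock and 0.487% in METTL7A1 cells. To equal the loss Chn1 would need a log2 rise of 0.40, which lay inside the interval of its own change from the fit over all genes.

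The genes around Chn1 were also higher in the median, and its excess over them was not distinguished from 0. Of its 10 nearest tested genes 3 were called higher and 1 lower, compared with 21.1% and 21% of all tested genes. The 40 abundant genes nearest to it on chromosome 2 had a median log2 fold change of 0.25, and with this value as an offset Chn1 was at 0.11 (95% interval -0.08 to 0.30, edgeR adjusted p = 0.381). The log2 rise of 0.40 that would equal the loss of Chn2 lay outside that interval. Over the 850 abundant genes of chromosome 2 the median was 0.13. The adjacent tested genes were Chrna1os (0.40, SE 0.25) and Atf2 (0.52, SE 0.07), a transcription factor of the CREB family. The call was also lost without METTL7A1 replicate 2, the deepest library, at a log2 fold change of 0.30 (edgeR adjusted p = 0.0537). An antisense gene, Chn1os3, overlaps exons of Chn1 and had at most 34 counts in any library.

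Stk24 (chromosome 14, 121286343 to 121379334, minus strand) was lower, not higher, in METTL7A1 cells. Its abundance was 59.6, 59.2 and 56.4 cpm in mock and 48.6, 50.3 and 50.6 cpm in METTL7A1 replicates 1 to 3. The groups did not overlap, as in 51.6% of all tested genes. The log2 fold change was -0.23 with a 95% interval of -0.37 to -0.08 (edgeR quasi-likelihood test, adjusted p = 0.0158). A log2 rise of 0.09 would have equalled the loss of Stk26, which lay outside this interval. The call was lost without METTL7A1 replicate 2 (-0.24, edgeR adjusted p = 0.0596), without mock replicate 1 (-0.20, edgeR adjusted p = 0.0687) and without an abundance filter (-0.19, edgeR adjusted p = 0.136).

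Stk24 also moved with its surroundings. Of its 10 nearest tested genes 7 were called, all of them lower, compared with 21% of all tested genes called lower. The nearest on each side were B930095G15Rik (-0.48, SE 0.13) and Dock9 (-0.22, SE 0.07), the gene of a Cdc42 exchange factor. The 40 nearest abundant genes had a median of -0.28, as had the 351 abundant genes of chromosome 14. With the median of the 40 genes as an offset the direction of Stk24 turned, to 0.050 (95% interval -0.09 to 0.19, edgeR adjusted p = 0.608). That interval, unlike the one without an offset, held the log2 rise of 0.09 that would have equalled the loss of Stk26.

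Stk25 (chromosome 1, 93619751 to 93635722, minus strand) had higher means in METTL7A1 cells, but its groups overlapped. Its abundance was 96.5, 87.2 and 90.1 cpm in mock and 115, 103 and 95.2 cpm in METTL7A1 replicates 1 to 3, METTL7A1 replicate 3 lying below mock replicate 1. The log2 fold change was 0.20 with a 95% interval of 0.02 to 0.37. That interval held the log2 rise of 0.10 that would have equalled the loss of Stk26. The adjusted p over all genes missed the threshold. It was past the threshold without METTL7A1 replicate 3 (0.26, edgeR adjusted p = 0.0325), without an abundance filter (0.23, edgeR adjusted p = 0.0487) and with the neighbour offset (0.24, edgeR adjusted p = 0.0406). The neighbour median was -0.05, and the nearest tested genes were Farp2 (0.14, SE 0.12) and Bok (-0.41, SE 0.10). Farp2 lies on the opposite strand, overlaps 1 exon of Stk25 and had at most 496 counts in any library.

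**Figure D2:**
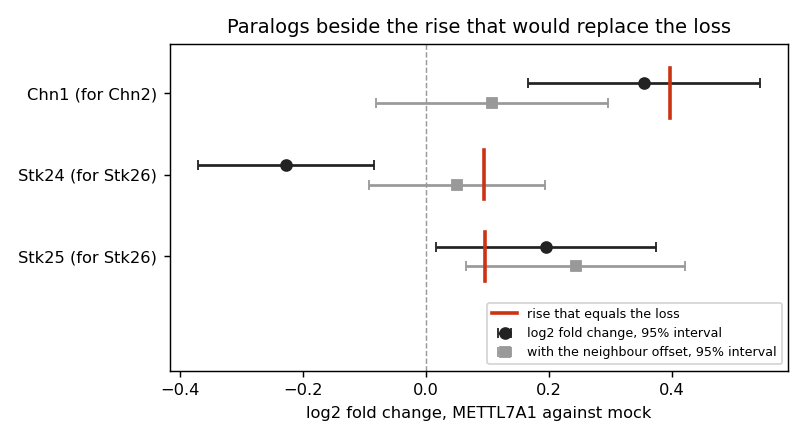
Log2 fold change of each tested paralog with its 95% interval, from the fit over all genes (black) and with the median change of 40 chromosomal neighbours as an offset (grey). The red line marks the log2 rise that would equal the per-length loss of the related gene, 0.40 for Chn1, 0.09 for Stk24 and 0.10 for Stk25. With the offset the intervals of Chn1 and Stk24 include 0, and the red line lies outside the interval of Chn1 and inside those of Stk24 and Stk25.

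For the GCKIII kinases the loss was small against what remained. Per length, Stk26 stood at 1.22, 1.71 and 1.57 rpkm in mock replicates 1 to 3, compared with means of 21.8 ± 0.668 rpkm for Stk24 and 21.5 ± 1.12 rpkm for Stk25 (SD, n = 3 each), and made up 3.35% of the summed level. The sum of Stk24 and Stk25 was 45.0, 42.6 and 42.3 rpkm in mock and 45.2, 43.2 and 41.3 rpkm in METTL7A1 replicates 1 to 3. The means were 43.3 ± 1.48 and 43.2 ± 1.93 rpkm (SD, n = 3 each, two-sided exact permutation test, p = 1, the smallest possible being 0.1). Stk24 fell by 3.21 rpkm (SE 0.454) while Stk25 was 3.12 rpkm (SE 1.49) higher, and the loss of Stk26 was 1.47 rpkm (SE 0.148).

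The ratio of Stk25 to Stk24 was 1.02, 0.927 and 1.01 in mock and 1.49, 1.30 and 1.18 in METTL7A1 replicates 1 to 3. Its mean was 0.984 ± 0.0497 in mock and 1.32 ± 0.154 in METTL7A1 cells (SD, n = 3 each). The ratio was formed after the directions of both genes had been seen and is given as a description, with no test. It rests in part on Stk24, whose direction turned with the neighbour offset.

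The surroundings of the lost genes differed from each other. Around Fam184a the direction changed at the gene itself. Within 5 Mb on the side of lower coordinates all 9 tested genes had negative log2 fold changes, with a median of -0.65, and 7 of them were called lower. On the other side all 9 were positive, with a median of 0.47, and 8 were called higher. Of all tested genes 21% were called lower and 21.1% higher. The nearest tested genes were Asf1a, a histone chaperone (-0.56, SE 0.08), and Man1a, a Golgi mannosidase (0.26, SE 0.07). Slc35f1 lay 522 kb away and was past the thresholds of the study (-2.72, SE 0.33). The part of this position in the loss of Fam184a was not tested.

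Chn2 and Stk26 had no such shift around them. The 40 nearest abundant genes had a median log2 fold change of 0.04 for Chn2 and 0.05 for Stk26. Of the 10 nearest tested genes of Chn2, 2 were called higher and 1 lower, compared with 21.1% and 21% of all tested genes. The adjacent ones were 9430076C15Rik (-0.27, SE 0.13) and Scrn1 (-0.50, SE 0.12). Mturn, 380 kb away, was past the thresholds of the study (1.64, SE 0.27). For Stk26 the numbers were also 2 and 1, and the adjacent genes Firre, an X-linked long non-coding RNA (-0.02, SE 0.13), and Rap2c, a Ras-like GTPase (-0.03, SE 0.10), were near 0. With the neighbour offset the log2 fold changes were -8.28 for Fam184a, -5.83 for Chn2 and -5.63 for Stk26. For Fam184a the offset was 0.42, which does not describe its lower-coordinate side, where the tested genes within 5 Mb were all negative.

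**Figure D3:**
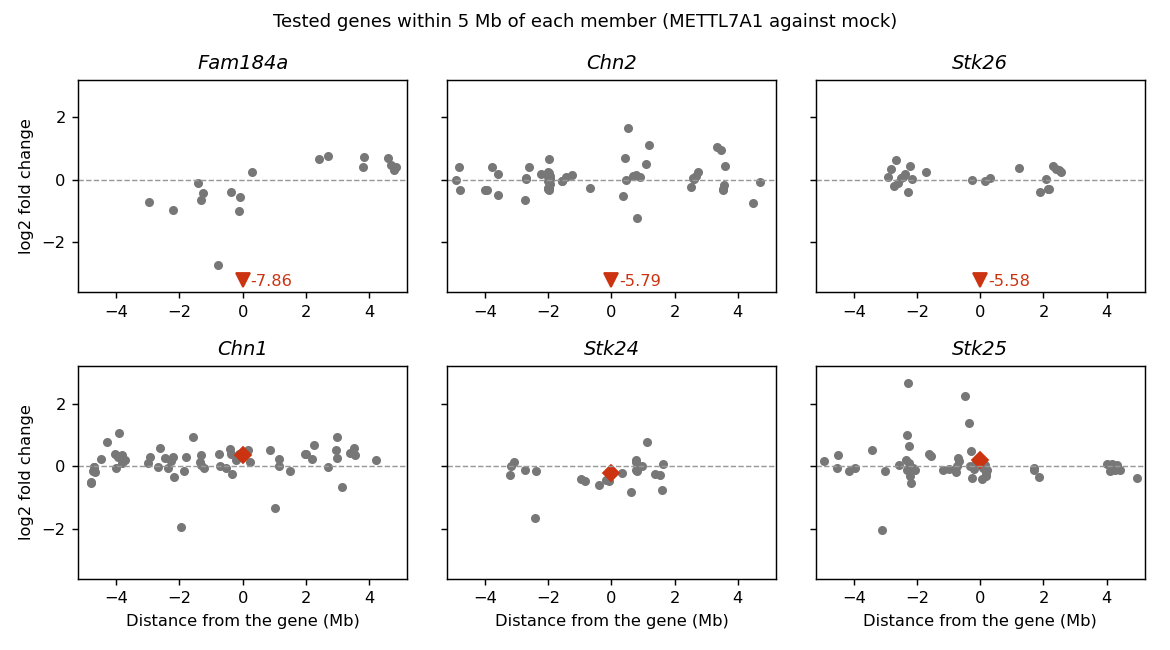
Log2 fold change of all tested genes within 5 Mb of each tested member (grey points) against distance from it, with the member in red. Triangles mark values below the axis, given as numbers. Fam184b, which was not tested, is not drawn. Points change sign at Fam184a, lie around 0 at Chn2, Stk26 and Stk25, mostly above 0 at Chn1 and mostly below 0 at Stk24.

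By Euclidean distance of log2 cpm over the 6 libraries, Dapk1, a kinase linked to cell death (3.23), Sgsm1 (4.44) and 2810429I04Rik (4.45) were nearest to Fam184a. The genes nearest to Chn2 were Slit2, a secreted guidance ligand (1.28), the protocadherin Pcdh18 (1.33) and Stk26 (1.63). Those nearest to Stk26 were Rnf113a2 (1.05), 2810429I04Rik (1.34) and Slit2 (1.37). Chn2 was not among the 3 genes nearest to Stk26, and the distances rest on the same values that chose the lost genes.

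Genes that work with the lost proteins were examined as 6 lists, read against 42.1% of all genes called and a median log2 fold change of -0.03. That share belongs to the fit with all libraries and without an offset. It is not given for the other fits, so their called numbers cannot be read against it. Of 16 STRIPAK genes 14 were tested, and 5 were called, all of them lower (35.7% of those tested, median -0.07). They included the striatins Strn3 (-0.51, SE 0.07) and Strn4 (-0.36, SE 0.08), which scaffold the complex. With the neighbour offset Strn3, on chromosome 12, was at 0.00 and Strn4 at -0.21 (edgeR adjusted p = 0.0716), and 3 genes of the list were called.

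Of 12 GCKIII partners 4 were called, all of them higher (33.3%, median 0.02), with Stk11, the LKB1 kinase (0.43, SE 0.07), the membrane linker Ezr (0.38, SE 0.10) and the LKB1 cofactor Stradb (0.31, SE 0.11) changed the most. Only Stradb was still called with the neighbour offset, and 2 of the partners were called without METTL7A1 replicate 2. Pdcd10, the direct adaptor of all GCKIII kinases, was at -0.12 (SE 0.07, edgeR adjusted p = 0.202). Among 21 tested kinases of the wider Ste20 family 13 were called (61.9%, median -0.07), 6 higher and 7 lower, and 7 with the neighbour offset or 8 without METTL7A1 replicate 2. The largest changes were those of Mink1 (-0.56, SE 0.08), Map4k5 (-0.52, SE 0.06) and Map4k2 (0.44, SE 0.10). With the neighbour offset Map4k5 was at 0.03 (edgeR adjusted p = 0.785), while Mink1 (-0.38) and Map4k2 (0.35) were still called.

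On the chimaerin side, 12 of 17 Rac GTPases and other Rac GAPs were tested and 5 called (41.7%, median 0.04), 3 higher and 2 lower. The largest changes were those of Rac3 (-0.83, SE 0.20), Srgap3, a GAP that acts on Rac (0.77, SE 0.11), and Rhog (-0.38, SE 0.11), and only Rac3 and Srgap3 were called with the neighbour offset. Without METTL7A1 replicate 2, or without mock replicate 2, 3 were called. Rac1, the main Rac of these cells at 265 cpm in mock, was at -0.16 (SE 0.09, edgeR adjusted p = 0.158).

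Of 17 other receptors of diacylglycerol with a C1 domain, 10 were tested and 6 called (60%, median 0.09), 3 higher and 3 lower. Unc13c, a vesicle-priming factor, had the only change past the thresholds of the study in the 6 lists (-1.68, SE 0.20), from 6.51 to 2.04 cpm, followed by Unc13b (-0.65, SE 0.10) and Prkca, a classical protein kinase C (-0.54, SE 0.07). Of 20 enzymes that make or remove diacylglycerol 12 were tested, and the 4 called were all higher (33.3%, median 0.15). These were led by Dgka, a diacylglycerol kinase (0.63, SE 0.17), and the phospholipases Plcd1 (0.62, SE 0.23) and Plcb3 (0.61, SE 0.06). With the neighbour offset 8 were called, 7 of them higher. Dgka was then at 0.22 and no longer called (edgeR adjusted p = 0.357), and the phospholipase Plcb4 was called lower at -0.29 (edgeR adjusted p = 0.0141). In 4 of the 6 lists the called share was below that of all genes.

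**Figure D4:**
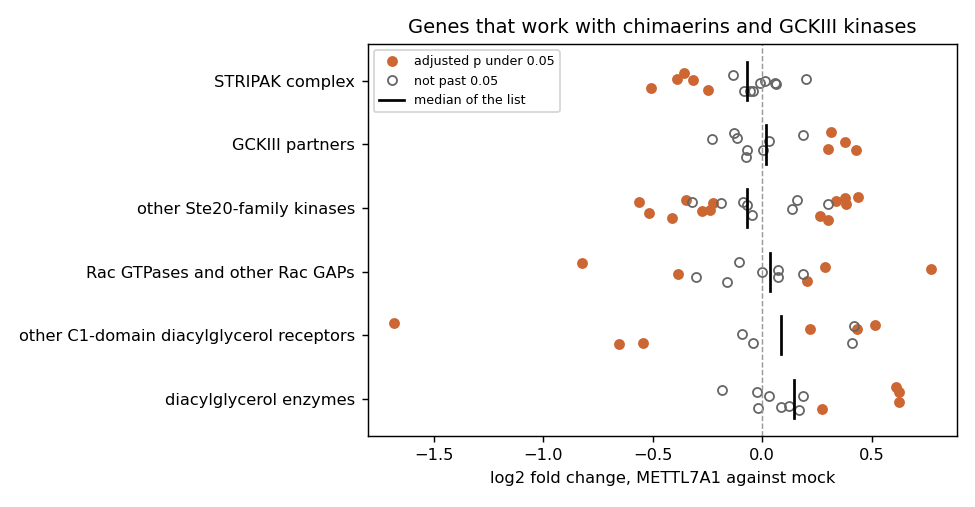
Log2 fold change of every tested member of the 6 lists, filled where the adjusted p was under 0.05, with the median of each list as a line. Called STRIPAK genes lie below 0, called GCKIII partners and diacylglycerol enzymes above 0, and the other lists on both sides.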

How the data were processed

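Total RNA of 4T1 cells was sequenced in 6 libraries, 3 per group, made with a stranded kit after ribosomal RNA depletion. The authors trimmed reads with BBDuk, aligned pairs to mm10 with STAR 2.5.3a (version from the submitters' processing notes) and counted them over Ensembl genes in featureCounts. The deposited values are raw counts. Strand and multi-mapping settings are not given in the sources used here. The exon length in the deposited table, a value of the annotation, was used for rpkm. Shares, sums and gains per length would differ if the cells used shorter transcripts of a gene.

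The filter of the study was used, 1 cpm or more in 3 or more libraries. TMM scaling and the quasi-likelihood test came from edgeR 4.0.16 (R 4.3.3), without a covariate, with Benjamini-Hochberg adjustment over 13166 genes. A gene was called at an adjusted p under 0.05. The study's thresholds were an adjusted p under 0.01 and a log2 fold change beyond 1.5, taken as log2. Levels between genes are rpkm on TMM-scaled library sizes. SEs of log2 fold changes follow from the F statistics. The neighbour offset subtracts the median change of 40 genes, the nearest on the chromosome whose average log2 cpm was over 2. Intervals of residual levels are exact binomial.

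The members, lists and tests were chosen with earlier results of these data known. Named neighbours are the nearest tested gene on each side and any of 5 per side past the study's thresholds, and named list members the 3 called with the largest change. The 3 genes closest to each lost gene in log2 cpm were also named. Pdcd10, Rac1 and Plcb4 were chosen after their values were seen. One gene that the rule names is not reported here. Scripts were tested on simulated data. Alternatives were RLE and upper quartile scaling, 2 other filters, removal of the 20 most abundant genes, a replicate block, omission of each library, DESeq2 1.42.0, voom of limma 3.58.1 and the neighbour offset.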

Additional observations from a re-analysis of the deposited data

How the results depend on the processing

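The losses of Fam184a, Chn2 and Stk26 kept their direction in every fit that held them. They were under the filter when a mock library was left out and in the fit requiring 10 counts in every library. With a METTL7A1 library left out they ranged from -8.23 to -7.58 for Fam184a, -6.54 to -5.29 for Chn2 and -6.19 to -5.35 for Stk26, the lowest arising without METTL7A1 replicate 1 for Chn2 and without replicate 2 for the others.

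Over the 6 fits with a library left out, the log2 fold change of Chn1 ranged from 0.30 to 0.41, of Stk24 from -0.24 to -0.20 and of Stk25 from 0.13 to 0.26. The number of paralogs called ranged from 0 (without METTL7A1 replicate 2) to 3 (without METTL7A1 replicate 3), and was 1 without mock replicate 1. The called number ranged from 2 to 5 for GCKIII partners, 8 to 12 for other Ste20-family kinases, 3 to 6 for Rac GTPases and GAPs (lowest without METTL7A1 replicate 2 in each, and without mock replicate 2 for Rac genes), 4 to 6 for STRIPAK and for C1-domain receptors, and 3 to 4 for diacylglycerol enzymes. Without an abundance filter Stk24 was at -0.19 and not called and Stk25 at 0.23 and called. With the neighbour offset, Chn1 was at 0.11 and Stk24, reversed, at 0.050, both not called, and Stk25 at 0.24 and called, so 1 paralog was called. The called numbers were then 3 for STRIPAK, 1 for GCKIII partners, 7 for Ste20-family kinases, 2 for Rac genes and 8 for diacylglycerol enzymes. Here the offset removes by construction what a gene shares with its neighbours. The share of all genes called with the offset or with a library left out is not given. Whether the called numbers of the lists moved more than that share was not tested. The causes of the other changes were not tested. No call of a paralog changed with DESeq2, voom, RLE or upper quartile scaling, with 10 counts required in every library, or without the 20 most abundant genes.

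Replicate numbers did not pair the libraries, as deviations from the group means correlated at -0.15, 0.20 and -0.37. With the replicate block Chn1 was at 0.35, Stk24 at -0.23 and Stk25 at 0.19, and no call of a paralog changed. Depth limits Fam184b, with at most 3 counts in any library, and the remainders of the lost genes, which rest on 11, 7 and 8 counts.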
